A study of Mus musculus with 6 samples.

Results

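Genes of the phagocyte oxidative burst were followed after lipopolysaccharide (LPS) in RNA pulled down with ribosomes tagged under the CD11b promoter. The group holds 6 genes, namely Cybb, Cyba, Ncf1, Ncf4 and Rac2, which encode parts of the phagocyte NADPH oxidase, and Nos2, which encodes inducible nitric oxide synthase. They were found by their gene symbol in the authors' deposited comparison table, where they take 7 of 34472 transcript clusters. Cybb has 2 clusters, and the brighter by its mean over all arrays stands for the gene.

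The mice carried RPL10a, a protein of the large ribosomal subunit, tagged with Flag and EGFP and expressed from the promoter of CD11b, an integrin of myeloid cells. This transgene was common to both groups. Animals were 2 to 3 months old, with males and females in equal ratio per the labels, and they received saline or LPS, an outer-membrane component of Gram-negative bacteria, at 5 mg/kg for 24 h. Ribosomes were pulled down by the tag (translating ribosome affinity purification), and the attached mRNA of a pool of 5 mice was hybridized to each Affymetrix MoGene 2.0 ST array, with 3 arrays per group. No tissue is named in the labels used here. The labels call the arrays biological replicates, and an array averages its 5 mice. In such bulk RNA, more cells of a type and more RNA per cell cannot be told apart.

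The phagocyte oxidase moves electrons from NADPH across a membrane to oxygen and so makes superoxide. Its catalytic core is a membrane heterodimer of gp91phox, encoded by Cybb, and p22phox, encoded by Cyba. On stimulation the cytosolic proteins p47phox (Ncf1) and p40phox (Ncf4), among others, join the core together with a GTP-bound Rac protein, of which Rac2 is the form typical of blood cells. Inducible nitric oxide synthase makes nitric oxide from arginine, is scarcely made in resting macrophages and is a classical target of LPS and interferon in mouse macrophages. Loss of gp91phox, p22phox, p47phox or p40phox causes chronic granulomatous disease in people.

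Proximal promoters of the genes are shown because mean values of all 6 genes were higher after LPS, and because the factors that bind such elements are measured further down. RefSeq promoter entries matched 3 of the 6 genes, Cybb, Cyba and Ncf1 (build GRCm38.p6, all on the minus strand). The 250 bases before an annotated start are printed 5′ to 3′, for Cybb at chrX:9469325-9469574, for Cyba at chr8:122432941-122433190 and for Ncf1 at chr5:134229626-134229875. The annotated Cybb gene spans chrX:9435252-9487766, so its window lies inside that span, before a start that is not the outermost. Capitals mark matches, on either strand, to GAAANNGAA, a core of interferon-stimulated response elements, or to TTCNNNGAA, the palindrome bound by STAT dimers.
Cybb: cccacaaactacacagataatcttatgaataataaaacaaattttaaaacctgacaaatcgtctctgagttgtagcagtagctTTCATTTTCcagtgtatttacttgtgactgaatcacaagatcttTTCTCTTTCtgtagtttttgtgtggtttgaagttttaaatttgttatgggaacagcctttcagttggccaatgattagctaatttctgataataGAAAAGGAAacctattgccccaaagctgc
Cyba: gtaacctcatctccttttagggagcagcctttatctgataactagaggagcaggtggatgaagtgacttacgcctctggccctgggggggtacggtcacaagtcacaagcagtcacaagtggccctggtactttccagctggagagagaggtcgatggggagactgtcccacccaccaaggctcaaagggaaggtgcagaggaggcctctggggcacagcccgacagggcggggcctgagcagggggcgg
Ncf1: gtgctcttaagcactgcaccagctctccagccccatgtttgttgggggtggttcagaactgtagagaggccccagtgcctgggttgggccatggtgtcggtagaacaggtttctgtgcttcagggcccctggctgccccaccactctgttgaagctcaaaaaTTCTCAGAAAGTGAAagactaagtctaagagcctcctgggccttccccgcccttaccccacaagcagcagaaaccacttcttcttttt

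GAAANNGAA occurred 3 times before the start used for Cybb, between 21 and 29, 115 and 123, and 159 and 167 bases upstream. It occurred 1 time in Ncf1, between 74 and 82 bases upstream. TTCNNNGAA occurred 1 time, in Ncf1, between 80 and 88 bases upstream, and shares 3 bases with the GAAANNGAA match there. GAGGAA, a core bound by ETS factors such as PU.1, matched 1 time, in Cybb, on the opposite strand between 10 and 15 bases after the start, a stretch that is not printed. The degenerate NF-kB consensus had no match in the 3 windows. Over the full windows of 300 bases, 8.53% of 32544 RefSeq promoters held GAAANNGAA, 8.33% held TTCNNNGAA, 28.1% held GAGGAA and 8.49% held the NF-kB consensus. These matches describe letters in a window and not binding.

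All 6 genes had higher mean values after LPS, by 0.25 to 0.995 on the log2 scale, and the median difference was 0.45 against -0.002 over all 34472 clusters. None passed the test over all clusters (limma adjusted p = 0.9999 for each), where 1 cluster passed, or 0.00290%. At an unadjusted limma p under 0.05, 4 of the 6 were higher (Cybb, Rac2, Ncf1 and Nos2), against 1.49% of all clusters. In the same 4 genes the LPS and saline arrays did not overlap, LPS being higher, which held for 3.61% of clusters. Values are log2 signals from the authors' RMA processing, a method that summarises the probes of a cluster and compresses differences of dim clusters. Levels of different genes depend on their probes and are not set against each other.

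**Figure D1:**
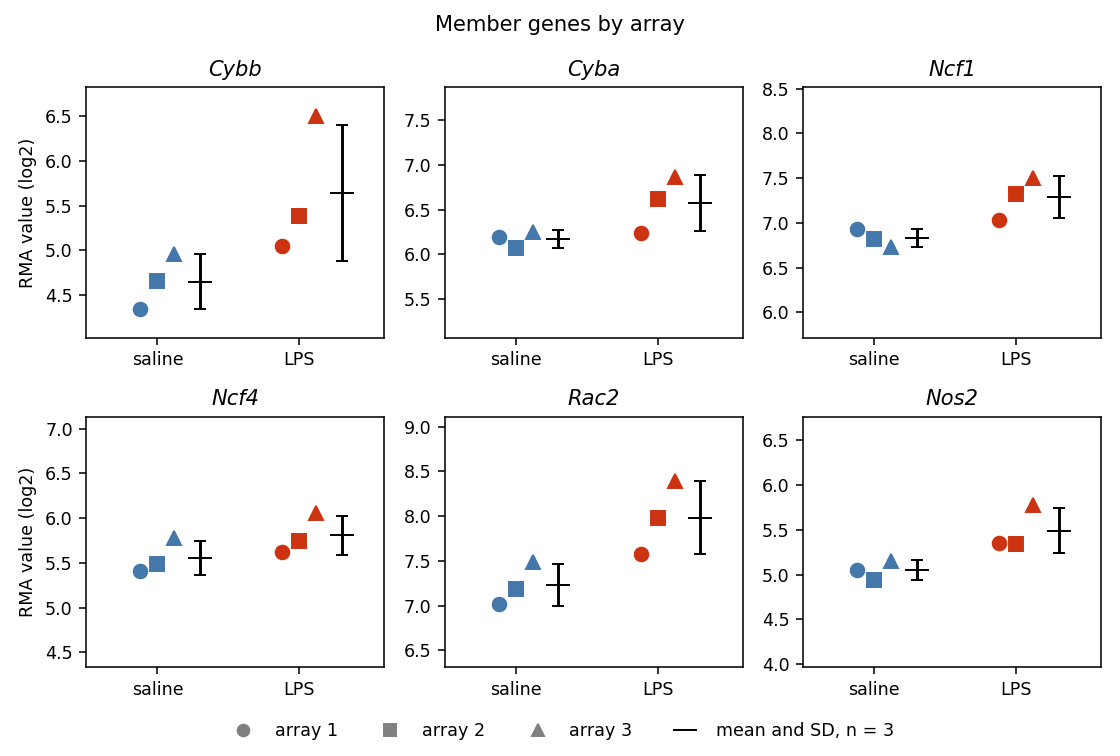
RMA values (log2) of the 6 genes in each saline array (blue) and LPS array (red), each array from a pool of 5 mice; symbols give the array number and black bars the mean and SD of 3 arrays, on axes of equal span. The groups do not overlap for Cybb, Ncf1, Rac2 and Nos2, and LPS 3 is the highest array in every panel.

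Cybb, whose product carries the haem groups and the NADPH site of the oxidase, had log2 values of 4.34, 4.65 and 4.96 in saline 1 to 3 and of 5.05, 5.38 and 6.50 in LPS 1 to 3. The groups did not overlap, but the lowest LPS array was only 0.10 above the highest saline array, and LPS 3 stood far above the other LPS arrays. The means were 4.65 ± 0.31 and 5.65 ± 0.76 (SD, n = 3 each), a difference of 0.995 ± 0.36 (SE; 95% interval 0.18 to 1.81), or 1.99-fold. Without LPS 3 the difference was 0.57.

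The other Cybb cluster gave a smaller value. It is annotated with 3 accessions, all shared with the 19 of the main cluster, and read 4.59, 4.84 and 4.45 after saline and 4.66, 4.96 and 5.11 after LPS. Here the groups overlapped, and the difference was 0.28 ± 0.18 (SE), with a 95% interval of -0.14 to 0.71. The 2 clusters of this gene thus differ in size, and which of them better measures the transcript was not tested. Both lie near the middle of the ranked cluster means, the main cluster at the 48.6th percentile and the other at the 41.6th. The B cell gene Cd79b ranked at the 45.6th and the T cell gene Cd3e at the 45.0th. A middle rank therefore does not by itself show expression, and distance from background signal was not tested.

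Cyba encodes p22phox, which stabilises gp91phox and docks p47phox. It read 6.20, 6.07 and 6.25 after saline and 6.24, 6.61 and 6.87 after LPS. LPS 1 lay within the range of the saline arrays, while LPS 2 and LPS 3 lay above it. The difference was 0.40 ± 0.19 (SE; 95% interval -0.04 to 0.84), and 0.26 without LPS 3.

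Among the cytosolic subunits, Ncf1, the organiser that links the cytosolic complex to p22phox, read 6.93, 6.82 and 6.73 after saline and 7.04, 7.33 and 7.50 after LPS. Its groups did not overlap, by a gap of 0.11, and the saline arrays were close together. The difference was 0.46 ± 0.17 (SE; 95% interval 0.06 to 0.85), or 1.37-fold.

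Ncf4, whose product p40phox binds a phosphoinositide of phagosome membranes, had the smallest difference of the 6. It read 5.41, 5.48 and 5.77 after saline and 5.62, 5.75 and 6.05 after LPS. Saline 3 exceeded LPS 1 and LPS 2, so the groups overlapped. The difference was 0.25 ± 0.18 (SE; 95% interval -0.16 to 0.67), and 0.13 without LPS 3.

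Rac2, the small GTPase that switches the assembled oxidase on, had the lowest unadjusted p of the 6 (limma unadjusted p = 0.0121). Its values were 7.02, 7.19 and 7.48 after saline and 7.57, 7.98 and 8.39 after LPS. The groups were apart by 0.09, with saline 3 the highest saline array and LPS 3 the highest LPS array. The difference was 0.75 ± 0.23 (SE; 95% interval 0.21 to 1.29), or 1.68-fold. The ubiquitous relative Rac1 read 11.12, 11.14 and 11.18 after saline and 11.19, 11.16 and 11.30 after LPS, a difference of 0.07 ± 0.14.

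Nos2 read 5.05, 4.94 and 5.16 after saline and 5.35, 5.34 and 5.78 after LPS. It had the widest gap between its groups among the 6, at 0.19, and LPS 3 again stood above the other LPS arrays. The difference was 0.44 ± 0.18 (SE; 95% interval 0.04 to 0.84), or 1.36-fold. Its cluster mean was at the 50.7th percentile of all clusters, a rank that also depends on its probes. As for Cybb, such a rank does not by itself show expression.

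**Figure D2:**
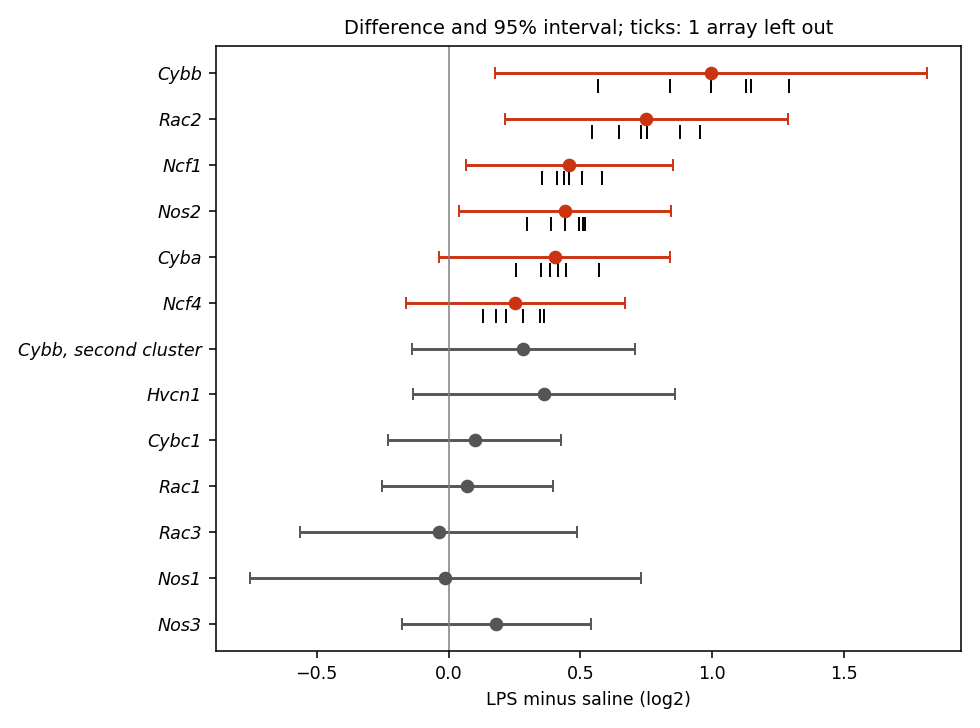
LPS minus saline (log2) from limma with 95% intervals for the 6 genes (red), the other Cybb cluster and related genes (grey), with black ticks for the member differences when 1 array is left out. Member differences run from 0.25 for Ncf4 to 0.995 for Cybb, and the intervals of Cyba and Ncf4 include 0.

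The authors' deposited table, which uses bi-weight group averages that weigh down distant arrays, gave linear folds of 1.67 for Cybb, 1.70 for Rac2, 1.39 for Ncf1, 1.32 for Cyba and 1.23 for both Ncf4 and Nos2. For Cybb the authors' deposited table averages 5.39 after LPS, below the plain mean, since LPS 3 counts less in it. Of the 6 genes, 2 have a p-value in the authors' deposited table under 0.05, Ncf1 (0.0351) and Nos2 (0.0481), and the false discovery rate is 0.9999 for all of them. The share of all clusters under 0.05 by the authors' p-value was not computed. With an unmoderated test run here, a different one, 1080 of 34472 clusters were under 0.05 in either direction.

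The LPS arrays differed widely among themselves. LPS 3 was the highest LPS array for 6 of 6 genes, against 59.8% of all clusters, and LPS 1 the lowest for 5. Saline 3 was the highest saline array for 5 of 6, with Ncf1 the exception. For the LPS 1 and saline 3 counts the share over all clusters was not computed. The mean over the 6 genes, as a difference from its saline mean, was -0.09, -0.06 and 0.15 in saline 1 to 3 and 0.23, 0.48 and 0.93 in LPS 1 to 3. Median log2 signals over all clusters also ran higher in the arrays numbered 3, at 5.35 and 5.42 against 5.15 to 5.19 in the other 4. With each array centred on its median, the 6 differences were 0.22 to 0.96 and the groups were apart in 6 of 6 genes, against 2.92% of clusters.

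Same-numbered arrays of the groups differed in the same direction for every gene. LPS was above saline in all 3 pairs for 6 of 6 genes, against 13.1% of all clusters. For Cybb, Ncf1, Rac2 and Nos2, whose groups did not overlap, this would hold under any pairing. The genes share the same 3 pairs of arrays and are not replicates of each other. The pair differences ran from 0.22 to 0.28 for Ncf4, the narrowest span, from 0.55 to 0.91 for Rac2 and from 0.30 to 0.62 for Nos2. For Cybb they were 0.71, 0.73 and 1.55, for Cyba 0.05, 0.55 and 0.61, and for Ncf1 0.11, 0.50 and 0.76. With the replicate number as a block none of the 6 passed either, with limma adjusted p from 0.327 for Rac2 and 0.383 for Cybb to 0.867 for Ncf4.

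Most of the remaining oxidase genes had smaller differences. Cybc1, a chaperone of the gp91phox and p22phox dimer listed under an older symbol and named here through its RefSeq accessions, differed by 0.10 ± 0.14 (SE). Hvcn1, the proton channel that balances charge during the burst, differed by 0.36 ± 0.22, or 0.19 without saline 1 and 0.23 without LPS 3.

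Of 12 such oxidase relatives 0 passed the limma test in either direction and 0 reached an unadjusted p under 0.05. Their median difference was 0.12 (0.06 without saline 2), with 8 positive and 4 negative. Among the oxidases of other tissues, Nox1 differed by 0.16 ± 0.15, its activator Noxa1 by 0.23 ± 0.16 (0.15 without saline 2) and its organiser Noxo1 by 0.17 ± 0.18 (0.06 without saline 1, 0.08 without LPS 2 and 0.27 without saline 3). Nox3 and Nox4 differed by -0.03 and -0.02, with either sign when 1 array was left out.

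Genes that act upstream of oxidase assembly were split. Of 19 activators and Rac regulators 0 passed the limma test. At an unadjusted limma p under 0.05, where 1.49% of all clusters were higher, 3 of these genes were higher. Among them were Vav1, an exchange factor that loads Rac with GTP (0.56 ± 0.17 SE), and Ptpn6, the phosphatase SHP-1 (0.39 ± 0.16). Fgr, a Src-family kinase of myeloid cells, differed by 0.43 ± 0.35, and by 0.03 without LPS 3 and 0.22 without saline 2. The list's median was 0.02, with 10 positive and 9 negative, and it was -0.02 with arrays centred on their medians, -0.04 without saline 1 and 0.12 without saline 3.

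Genes around nitric oxide synthesis did not differ in a common direction. The median over 20 genes was -0.01 (0.01 without LPS 2, 0.06 without saline 3), with 9 positive and 11 negative, and 0 passed the limma test or reached an unadjusted p under 0.05. Nos1 and Nos3, the constitutive neuronal and endothelial synthases, differed by -0.01 ± 0.32 (from -0.30 to 0.24 if any 1 array was omitted) and 0.18 ± 0.16. Gch1, the first enzyme for the synthase cofactor tetrahydrobiopterin, differed by 0.16 ± 0.17 (from 0.05 to 0.25 likewise), and Pts, the next enzyme of that pathway, by -0.26 ± 0.30, which was 0.09 without saline 3. Qdpr, which recycles the cofactor, differed by -0.22 ± 0.17 (-0.10 without LPS 2). Of the enzymes that rebuild arginine, Ass1 differed by -0.25 ± 0.21 (-0.06 without LPS 1 and -0.46 without LPS 3) and Asl by 0.18 ± 0.14.

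Transcription factors known to act at Cybb or Nos2 had a median difference of 0.25 over 11 genes, with 10 positive. This was 0.07 without LPS 3, and 0 passed the limma test. At an unadjusted limma p under 0.05, where 1.49% of all clusters were higher, 3 of these genes were higher. Among them were the PU.1 gene Spi1 (0.74 ± 0.22 SE) and the interferon regulatory factor gene Irf1 (0.47 ± 0.18). The Spi1 cluster is listed under a locus symbol in the deposited table and was named through its RefSeq accession. Spi1 read 6.44, 6.61 and 6.42 after saline and 6.84, 7.16 and 7.68 after LPS, so its groups did not overlap. LPS 3 was its highest array, as it was for each of the 6 genes. Cebpb differed by 0.32 ± 0.16 and Rela, the p65 subunit of NF-kB, by 0.28 ± 0.22, or 0.07 without LPS 3. In all, 0 of the 62 genes of the 4 lists passed the limma test in either direction. At an unadjusted limma p under 0.05, 6 were higher, against 1.49% of all clusters. In 11, or 17.7%, no LPS array was as low as any saline array, against 3.61% of all clusters. The lists were chosen with earlier results of these data known, so these shares are not a test of them.

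**Figure D3:**
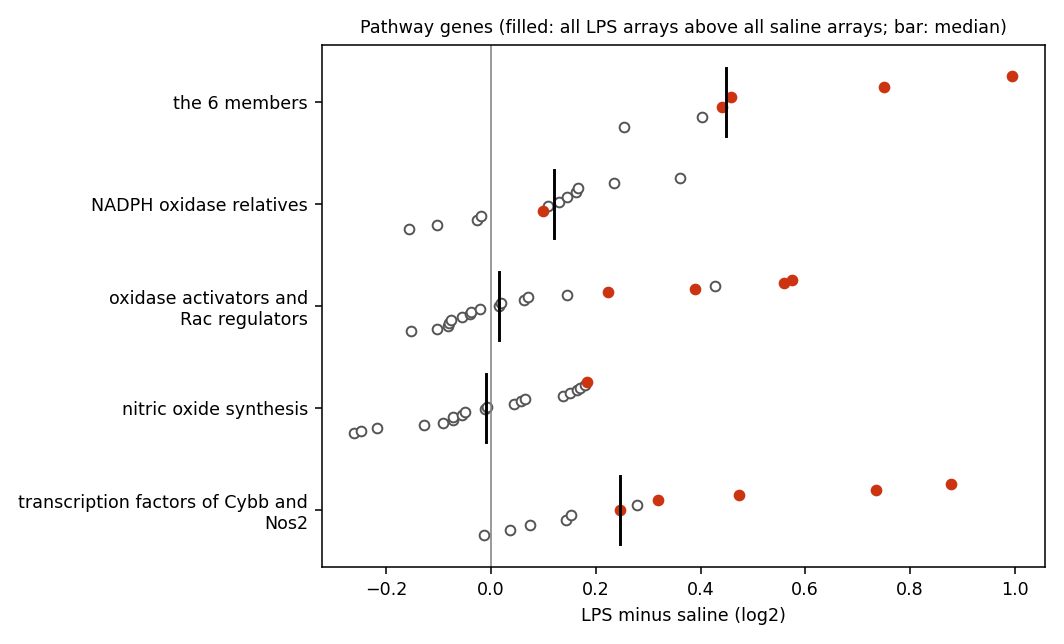
LPS minus saline (log2) of each gene of the 6 members and of the 4 pathway lists; filled points are genes whose LPS arrays are all above the saline arrays and bars are medians. The medians are 0.45 for the members, 0.12 for oxidase relatives, 0.02 for activators, -0.01 for nitric oxide synthesis and 0.25 for transcription factors.

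Markers of cells that could carry these transcripts were read beside them. Itgam, the CD11b gene whose promoter drives the tag, read 6.91, 6.79 and 6.46 after saline and 7.10, 7.11 and 6.99 after LPS, a difference of 0.35 ± 0.17 (0.22 without saline 3). Over a general myeloid panel of 7 genes, all 7 had a positive difference. The median of 0.45 equals that of the 6 oxidase and synthase genes to 2 decimals. Both results depend on which genes the panel holds, and it was chosen with earlier results of these data known. Csf1r (-0.25 ± 0.24 SE), Aif1 (-0.22 ± 0.24) and Cx3cr1 (-0.02 ± 0.18), also genes of myeloid cells, were placed in the resting microglia list. The panel's mean lay 0.16, 0.48 and 0.80 above its saline mean in LPS 1 to 3, close to the values of the 6 genes. Its mean level was 5.96 to 6.30 in saline arrays and 6.31 to 6.94 in LPS arrays. The part of these markers in the differences of the 6 genes was not tested.

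The oxidase is abundant in neutrophils. Of 13 neutrophil markers 12 had a positive difference, with a median of 0.25 (0.04 if LPS 3 and 0.40 if saline 3 was omitted). The list's mean level was 4.35 to 4.58 in saline arrays and 4.58 to 5.12 in LPS arrays. S100a9 differed by 1.22 ± 0.24 and S100a8 by 1.47 ± 0.44, while the defining surface marker Ly6g read 3.53, 4.40 and 4.13 after saline and 3.97, 3.87 and 3.40 after LPS. Blood monocyte markers, 10 genes with 5 positive, had a median of -0.03 (0.01 without LPS 1, 0.02 without saline 3). Ly6c2 differed by 0.60 ± 0.42 (0.30 without LPS 2, 0.33 without LPS 3 and 1.17 without LPS 1), Plac8 by 0.50 ± 0.17 and S100a4 by 0.38 ± 0.21 (0.16 without LPS 3). In the last 2 all LPS arrays were above all saline arrays, which held for 3.61% of clusters. In F10 all LPS arrays were below all saline arrays (-0.12 ± 0.14), and Chil3 differed by -0.39 ± 0.38 (-0.03 without LPS 1). Fn1 differed by -0.43 ± 0.22 (-0.29 without saline 1, -0.67 without saline 3), and Ccr2 stood at 3.22 to 3.73 after saline and 3.09 to 3.44 after LPS. Their mean level was 4.77 to 4.90 and 4.65 to 5.06. The part of either cell type was not tested.

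Resting microglia markers ran opposite to the 6 genes, with 11 of 11 negative and a median of -0.28 (-0.49 without LPS 1). Their mean level was 6.59 to 6.88 in saline arrays and 6.19 to 6.58 in LPS arrays. P2ry12 differed by -1.24 ± 0.34 and Siglech by -0.94 ± 0.24, neither past the limma test. Medians were 0.25 for 6 astrocyte markers (0.14 without saline 3) and 0.20 for 6 endothelial markers (0.11 without LPS 3). They were -0.01 for 8 neuron markers (from -0.12 without saline 3 to 0.05 without LPS 3) and -0.02 for 8 markers of T and B cells (from -0.08 without saline 1 to 0.05 without LPS 1). The astrocyte gene Gfap differed by 1.19 ± 0.28 and the endothelial gene Cldn5 by 0.73 ± 0.27 (0.45 without LPS 3), each highest in LPS 3. Neuron markers had mean levels of 10.7 to 10.9 in all arrays. By cluster mean, the neuron gene Snap25 stood at the 99.97th percentile and Itgam at the 71.6th, ranks that also depend on probes. The arrays thus also held RNA of cells other than myeloid ones, and the part of such RNA was not tested.

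**Figure D4:**
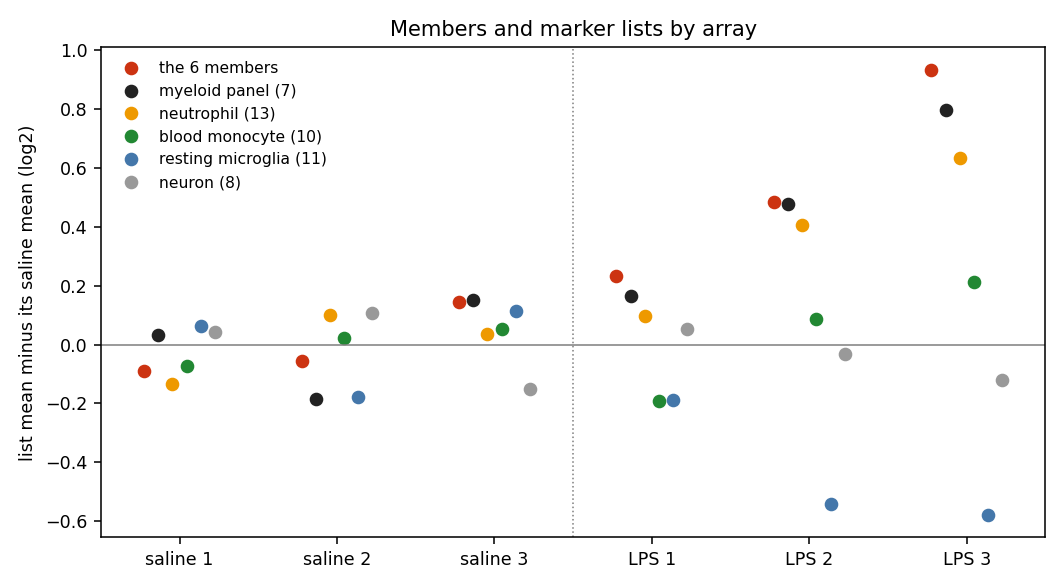
Mean log2 value of the 6 genes and of 5 marker lists in each array, as the difference from the list's own saline mean. The lists were chosen with earlier results of these data known. The 6 genes (0.23, 0.48 and 0.93 in LPS 1 to 3) and the myeloid panel (0.16, 0.48 and 0.80) lie close together, while resting microglia markers lie below 0 in the 3 LPS arrays.

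Genes with a like pattern were sought among clusters with 1 gene (29085 for Cybb and 29081 for the mean of the oxidase genes), by the root mean square difference of mean-centred log2 values over the 6 arrays. Nearest to Cybb were Stfa2l1 (0.11), Irgm2 (0.14), Ch25h (0.15), the predicted gene Gm5914 (0.15) and Cxcl16 (0.15). Irgm2 is an interferon-induced GTPase, Ch25h makes an oxysterol and Cxcl16 is a chemokine. Each of these 3 was highest in LPS 3, as Cybb was, which follows from how they were picked. Nearest to the mean of the 5 oxidase genes were Ampd3 (0.05), Clic1 (0.07), Errfi1 (0.07), Mustn1 (0.08) and Sbno2 (0.09). Ampd3 is an AMP deaminase and Clic1 a chloride channel protein. They differed by 0.52 ± 0.23 and 0.55 ± 0.18 (SE), sizes that also follow from the choice. None of these genes passed the limma test.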

How the data were processed

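Messenger RNA bound to tagged ribosomes was measured on 6 arrays, 3 per group. The deposited value table holds log2 signals that, per the submitters' processing notes, the authors produced in Affymetrix Expression Console by RMA. RMA quantile-normalizes probes and compresses differences of dim clusters. The authors' deposited comparison table, from Transcriptome Analysis Console 3.0 per the series' design text, holds log2 bi-weight averages, a signed linear fold, a p-value and a false discovery rate. Its fold (unit: other) is negative where saline is higher. Genome build and array annotation version are not stated in the labels used here.

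Differences are LPS minus saline from limma 3.58.1 in R 4.3.3 (lmFit, eBayes), with group as the only term, over 34472 annotated clusters with Benjamini-Hochberg adjustment at 0.05, two-sided. SE and 95% intervals are limma's; SD is between 3 arrays, a number that limits precision. The fit was tested on simulated data. Symbols are the deposited ones or, for Cybc1 and Spi1, current ones matched by RefSeq accession. Members and the 12 gene lists (4 of pathway genes, 8 of markers) were chosen with earlier results of these data known. Named by rule were the members, up to 4 genes of a pathway list and 2 of a marker list by absolute difference, Rac1, Itgam and the genes of like pattern; other names were chosen after their values were seen. Some genes of the pathway lists are counted but not reported here by name.

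The labels number arrays 1 to 3 in each group. Deviations from group means correlated across clusters by 0.27, 0.12 and 0.56 for numbers 1, 2 and 3. Each was above the 0.1 used here for pairing, so a replicate block was run as an alternative. Deviations cancel out over the 3 arrays of a group, so these correlations are not independent. Correlations of differently numbered arrays were not computed, so passing 0.1 does not show that same-numbered arrays are pairs. Other alternatives were repeated quantile normalization, median centring, brighter clusters, all clusters, an intensity trend, array weights, leaving out arrays, and an unmoderated test.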

Additional observations from a re-analysis of the deposited data

How the results depend on the processing

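Each gene had 15 alternative values (for Cybb the other cluster in place of the fit on brighter clusters, which leaves it out), and 0 of 90 member differences changed sign and none passed (lowest limma adjusted p = 0.314, Rac2 with array weights). Many of these could not change sign. The replicate block, intensity trend, unmoderated test and fits on all or brighter clusters leave a difference as it was and alter only its test. For Cybb, Ncf1, Rac2 and Nos2, whose groups did not overlap, leaving out arrays could not change the sign either. The median of the 6 ran from 0.32 without LPS 3 to 0.58 without LPS 1 and was 0.33 without both arrays numbered 3. Differences with 1 array left out ran from 0.57 to 1.29 for Cybb, 0.26 to 0.57 for Cyba, 0.35 to 0.58 for Ncf1, 0.13 to 0.36 for Ncf4, 0.54 to 0.95 for Rac2 and 0.30 to 0.52 for Nos2, lowest without LPS 3 in each.

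Clusters past the threshold numbered 1 in the reported fit, 3 with the replicate block, 2 without both arrays numbered 3 and 22 with array weights. They numbered 0 over all 41345 clusters of the value table (limma, 1083 at an unadjusted p under 0.05) and 0 with the unmoderated test (1080). With 1 array left out they ran from 0 to 12, the latter without LPS 1. None was a member. The replicate block changed no call of a member. The cause of these shifts was not tested.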
